A study of Mus musculus with 36 samples.

Results

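Cells of the BV-2 line, mouse microglia that were made immortal, were compared after 24 h with lipopolysaccharide (LPS) and monomethyl fumarate (MMF) or with the vehicle dimethyl sulfoxide (DMSO) alone. The members are the 3 LPS-MMF libraries (replicates 1 to 3) and the 3 DMSO libraries (replicates 4 to 6) at 24 h, that is 6 of the 36 libraries of the series, with all 11580 genes that passed the filter on low values. LPS-MMF cells had received 600 ng/ml LPS and 30 µM MMF, DMSO cells neither, and all cells were at 0.2% vehicle in medium whose serum had been lowered to 0.1%. The series holds 12 groups of 3 libraries, in which the cells had DMSO, ethanol (EtOH), LPS alone, or LPS with MMF, dimethyl fumarate (DMF, 30 µM) or cannabidiol (CBD, 6 µM), each for 4 h or 24 h. LPS and MMF changed together between LPS-MMF and DMSO cells, so the comparison measures the activation that remained under MMF and cannot divide it between the agents. Groups at 24 h with LPS alone, DMF and EtOH were used beside it for that reason. The cells are of 1 immortalised wild-type line grown without other brain cells, and which vehicle the cells with LPS alone received is not given in the sources used here.

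LPS is a component of the outer membrane of Gram-negative bacteria that microglia sense through Toll-like receptor 4 with its partners CD14 and MD-2. The receptor signals through MyD88 and IRAK kinases to the transcription factor NF-kB, and through another adaptor to interferon regulatory factors, so that cytokines, chemokines, enzymes of nitric oxide and prostaglandin synthesis and interferon-response genes are transcribed. MMF is the active metabolite of DMF, an oral drug for multiple sclerosis. Fumarate esters modify cysteines of Keap1, which otherwise holds the antioxidant transcription factor Nrf2 at a low level, and MMF also binds the hydroxycarboxylic acid receptor 2.

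The LPS-MMF libraries held 16128218 to 21670051 counted reads and the DMSO libraries 14110424 to 15668191, so depth differed between the groups without overlap, and its part in the results was not tested. Between 14760 and 14999 genes had at least 1 read. Levels are normalised counts, which are reads divided by a size factor for each library. All 10 macrophage and microglia markers reached 10 normalised counts, with summed levels of 44545 to 56485 in DMSO and 53097 to 68093 in LPS-MMF libraries. Markers of other cells were mostly near 0, with Snap25, Syt1, Mog, Olig2, Aqp4 and Col1a2 at 0 in all 6 libraries, but the myelin gene Mbp read 979 to 1395, and the neuronal gene Map2 read 114 to 132 in DMSO and 178 to 206 in LPS-MMF libraries. In bulk RNA, fewer cells expressing a gene and less RNA per cell cannot be told apart. The labels speak of 3 repeats of the experiment but do not say what each library number shares, so p-values measure the spread between these libraries, which may be in part technical.

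At 24 h, LPS-MMF cells had a strong inflammatory profile relative to DMSO cells. Of the 11580 genes tested, 2590 (22.4%) changed at a limma adjusted p below 0.05, 1448 of them upwards (12.5%) and 1142 downwards (9.86%). The rises were the larger: 294 of them (2.54% of all tested genes) exceeded 1 on the log2 scale and 65 exceeded 2, whereas 161 falls (1.39%) exceeded 1 and 23 exceeded 2. The median log2 fold change was 0.51 over the rises, -0.46 over the falls and 0.00 over all genes tested. The 3 libraries of each group lay entirely apart for 1444 of the rises and 1121 of the falls, while 4622 of all tested genes (39.9%) were apart in this way. Without LPS-MMF replicate 3, the deepest of the 6 libraries, 1657 genes passed. LPS-MMF replicate 2 was the highest of its group for 243 of the 294 rises beyond 1 (82.7%), against 43.7% of all tested genes.

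The largest rise was that of Lcn2 (chr2:32274645-32278264, GRCm39), which encodes lipocalin 2, a secreted protein that binds bacterial iron carriers. Its normalised counts were 26.2, 37.1 and 32.4 in the DMSO libraries and 4064, 7439 and 6438 in the LPS-MMF libraries. The lowest LPS-MMF library thus lay far above the highest DMSO library, and the log2 fold change was 7.47 ± 0.20 (SE, n = 3 per group), with a limma adjusted p of 5.98e-08. Csf3 (chr11:98592089-98594455), the gene of granulocyte colony-stimulating factor, read 3.02, 4.64 and 3.47 in DMSO and 435, 871 and 523 in LPS-MMF libraries. It was barely detected in every DMSO library and rose by 6.97 ± 0.27 (SE) on the log2 scale. Il1b (chr2:129206490-129213059), which encodes the secreted cytokine interleukin-1 beta, read 19.1, 61.4 and 40.5 in DMSO and 1862, 3635 and 2647 in LPS-MMF libraries. The DMSO libraries varied widely among themselves for Il1b but stayed below every LPS-MMF library, and the log2 fold change was 6.13 ± 0.36 (SE), with a limma adjusted p of 8.01e-06.

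Other members of the interleukin-1 family were among the 12 largest rises. Il1a, the other interleukin-1 agonist, rose from 19.3 ± 3.68 to 696 ± 111 normalised counts (mean ± SD, n = 3). Il36a rose from 3.32 ± 2.33 to 162 ± 14 and Il36g from 59.4 ± 19.9 to 1238 ± 370, both being ligands of the interleukin-36 receptor. Their log2 fold changes were 5.10 for Il1a, 5.39 for Il36a and 4.37 for Il36g. Il6, a cytokine that drives the acute-phase response, read 3.02, 1.16 and 2.31 in DMSO and 77.0, 92.5 and 74.8 in LPS-MMF libraries. No DMSO library came near the LPS-MMF range for Il6, and its log2 fold change was 4.74 ± 0.33 (SE).

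The remaining large rises were of mixed function. Urah, which encodes an enzyme of urate breakdown, had 226 reads in the 3 LPS-MMF libraries and 1 read in the 3 DMSO libraries, a ratio of 183 after normalisation with a 95% counting interval from 32.5 to 7253. Wfdc17, a small secreted protein of activated macrophages, was almost level within each group, at 18.7 ± 1.4 in DMSO and 275 ± 9.12 in LPS-MMF cells. Pou2f2, the gene of the transcription factor Oct-2, rose from 373 ± 99.9 to 4899 ± 780. Saa3, an acute-phase serum amyloid protein, read 2285, 4399 and 3039 in DMSO and 21531, 57126 and 31865 in LPS-MMF libraries. Cxcl2, a neutrophil-attracting chemokine, read 639, 992 and 737 in DMSO and 6471, 11228 and 7268 in LPS-MMF libraries. For both Saa3 and Cxcl2 the second LPS-MMF library was the highest, with log2 fold changes of 3.44 ± 0.32 and 3.38 ± 0.20 (SE).

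**Figure D1:**
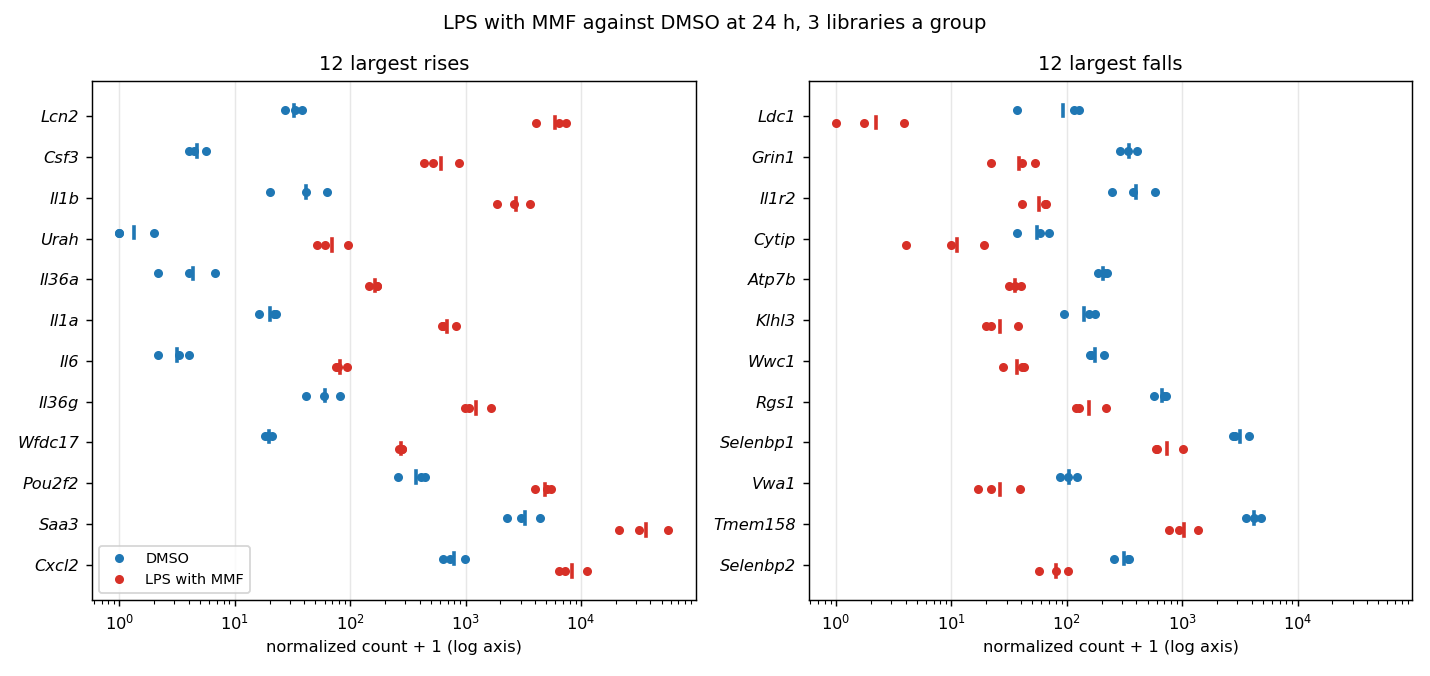
Normalised counts plus 1 on a log axis for the 12 largest rises (left) and the 12 largest falls (right), with 1 point per library, a bar at the group mean, DMSO in blue and LPS with MMF in red (n = 3 each). The groups lie apart for each of the 24 genes, which the choice of genes required, and Lcn2 moved from about 32 to about 5980.

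The largest falls were also of mixed function. Ldc1, annotated as a leucine decarboxylase, had 243 reads in the 3 DMSO libraries and 4 in the 3 LPS-MMF libraries, a ratio of 75.1 with a 95% counting interval from 29.0 to 278. Grin1, the gene of the obligatory NMDA receptor subunit, read 290, 405 and 337 in DMSO and 40.0, 52.0 and 21.1 in LPS-MMF libraries. Il1r2, a decoy receptor that binds interleukin-1 without signalling, read 244, 376 and 576 in DMSO and 65.0, 63.6 and 40.0 in LPS-MMF libraries. Grin1 fell by 3.23 and Il1r2 fell by 2.75 on the log2 scale, with limma adjusted p-values of 5.88e-05 and 0.000174. In the same libraries, then, the mRNAs of both interleukin-1 agonists rose while that of the decoy receptor fell.

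Atp7b, a copper-exporting ATPase, fell from 205 ± 20.3 to 34.6 ± 4.39 normalised counts. Rgs1, which limits signalling by G protein-coupled receptors, read 727, 564 and 696 in DMSO and 218, 119 and 125 in LPS-MMF libraries. Tmem158, a membrane protein gene, fell from 4169 ± 612 to 1030 ± 316 and had the highest DMSO level of the 12 falls. Selenbp1, a selenium-binding protein gene, fell from 3144 ± 564 to 736 ± 246 and its close copy Selenbp2 from 313 ± 50.2 to 78.8 ± 22.6, but reads shared by the copies make their separate levels uncertain. The other large falls were those of Klhl3, an adaptor of a ubiquitin ligase, Wwc1, a scaffold of the Hippo pathway, Vwa1, an extracellular matrix protein, and Cytip, a partner of cytohesins, with log2 fold changes of -2.43, -2.26, -2.06 and -2.55.

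Gene lists were described by how many members passed the test, beside the 22.4% of all genes that did. The 25 lists held 475 distinct genes, of which 423 were tested and 228 passed. Of 16 tested cytokines and growth factors, 11 rose and 1 fell, with a median log2 fold change of 1.22. Il27, a subunit of an interleukin-12 family cytokine, rose from a mean of 16.8 to 83.1. Tnf, named after its value was seen, read 1448, 1666 and 1542 in DMSO and 5329, 5538 and 5326 in LPS-MMF libraries, with little spread in either group and a log2 fold change of 1.80 ± 0.07 (SE). Il15, Csf1, Osm and Tnfsf9 did not pass, at log2 fold changes of -0.37, -0.19, 0.03 and 0.10.

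Of 14 tested chemokines, 9 rose and 0 fell, with a median of 0.98. After Cxcl2 the largest rises were those of the monocyte attractants Ccl7 and Ccl2. Ccl7 read 43.3, 29.0 and 45.1 in DMSO and 291, 138 and 264 in LPS-MMF libraries, and Ccl2 read 759, 526 and 763 against 3064, 2013 and 3381. Here the second LPS-MMF library was the lowest, unlike for most rises, and the groups still did not overlap. Cxcl3, another neutrophil attractant, and Cxcl10, an interferon-induced T-cell attractant, rose by 1.63 and 1.59. Ccl6, Ccl22, Cxcl11, Cxcl14 and Cxcl16 did not pass, the largest mean among them being 1171 for Cxcl14 at a log2 fold change of 0.22. Among 8 tested chemokine and formyl peptide receptors, 2 rose and 2 fell. Fpr1, a receptor for bacterial formyl peptides, rose from 13.4 ± 4.16 to 97.2 ± 24.7, and Ccrl2, a non-signalling chemerin-binding receptor, rose by 1.59 on the log2 scale. Cxcr4, the receptor of Cxcl12, fell from 461 ± 102 to 172 ± 47.4, and Ccr1 fell by 0.55 on the log2 scale.

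Secreted acute-phase and antimicrobial proteins rose in 7 of 9 tested cases, with a median log2 fold change of 1.73. Besides Lcn2 and Saa3 they were led by S100a8, a subunit of calprotectin, which went from 22.1 ± 9.30 to 172 ± 72.6. Slpi, a protease inhibitor, reached 10593 ± 4778 from 1966 ± 252, and Hp, the gene of haptoglobin, which binds free haemoglobin, 4624 ± 1558 from 1371 ± 360. S100a4 and S100a6 did not pass, at log2 fold changes of -0.05 and 0.10.

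Among 19 tested effector enzymes of activation, 15 rose and 1 fell, with a median of 1.27. Acod1, which makes itaconate, read 606, 1072 and 1005 in DMSO and 6667, 12261 and 8534 in LPS-MMF libraries. Nos2, the inducible nitric oxide synthase, read 461, 1168 and 769 in DMSO and 4641, 9272 and 4653 in LPS-MMF libraries. The groups lay apart for both, and Nos2 had the wider spread, with a log2 fold change of 2.97 ± 0.33 (SE) against 3.35 ± 0.24 for Acod1. The only fall was that of Arg1, arginase 1, which competes with Nos2 for arginine: it read 36.3, 59.1 and 53.2 in DMSO and 6.00, 5.78 and 2.27 in LPS-MMF libraries, with a log2 fold change of -3.20 ± 0.38 (SE). Mmp13 and Mmp9, which encode a collagenase and a gelatinase, rose by 3.16 and 2.53, and Ptgs2, cyclooxygenase 2, named after its value was seen, rose by 1.88 from the high resting level of 8244 ± 1737. Gch1, Hdc and Mmp14 did not pass.

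Components of the NF-kB system rose in 16 of 20 cases and fell in 0, with a median log2 fold change of 0.87, and the feedback inhibitors were among them. Ikbke, a kinase of the interferon-inducing branch, rose from 479 ± 69.3 to 2537 ± 365. Zc3h12a, an RNase that degrades cytokine mRNAs, rose from 399 ± 43.5 to 1634 ± 267, and Traf1, an adaptor of TNF receptors, rose by 1.89. Nfkbiz and Bcl3, nuclear proteins of the inhibitor family, rose by 1.79 and 1.75. The subunit gene Rela, Nfkbie, Tnfaip3 and Ikbkb did not pass, at log2 fold changes of -0.15, 0.45, 0.38 and 0.10. The list had 16 calls whichever 1 library was left out.

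The receptors and adaptors that sense LPS moved less: 8 of 21 rose and 3 fell, with a median of 0.11. Tlr4, the LPS receptor, read 718, 778 and 902 in DMSO and 818, 779 and 797 in LPS-MMF libraries. These ranges overlap, and the log2 fold change was 0.00 with a 95% interval of -0.20 to 0.20. Irak3, an inhibitory member of the IRAK family, rose from 98.1 ± 12.6 to 445 ± 128, and Irak2 rose by 1.17. Tlr9, Tlr1 and Tlr8, which sense bacterial DNA, lipopeptides and RNA, rose by 1.66, 1.56 and 1.44. The 3 falls were those of Tlr5 (-0.54), Traf6 (-0.43) and Tollip (-0.28), and Ly96, which encodes MD-2, and Myd88 did not pass at 0.25 and 0.12.

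Interferon-response genes rose in 26 of 28 tested cases and fell in 0, with a median of 1.04. Isg15, a ubiquitin-like modifier, read 103, 137 and 142 in DMSO and 322, 440 and 324 in LPS-MMF libraries. The lowest LPS-MMF library held more than the highest DMSO library, and the log2 fold change was 1.5 ± 0.16 (SE). The guanylate-binding proteins Gbp3 and Gbp5 rose by 1.59 and 1.57, the antiviral nucleotide kinase Cmpk2 by 1.90 and Ifi44 by 1.30. Irf1 and Isg20 did not pass, at 0.11 and 0.46. Class I antigen presentation rose in 14 of 18 tested cases with a smaller median of 0.42, led by the proteasome activator Psme2 at 0.80 and the immunoproteasome subunit Psmb9 at 0.67. Its calls were 9 without LPS-MMF replicate 3, and reads shared among the class I heavy-chain genes make H2-Q4 and H2-T23 uncertain.

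STAT factors and their feedback inhibitors rose in 7 of 15 cases and fell in 0. Cish read 120, 122 and 141 in DMSO and 420, 531 and 417 in LPS-MMF libraries, and Socs3 read 509, 683 and 758 against 1803, 2469 and 2085. Both lay apart between groups and encode inhibitors of cytokine receptor signalling, as does Socs1, which rose by 1.63. The immediate-early AP-1 and MAP kinase feedback genes were divided, with 3 rises and 5 falls among 20, led by Fosb (-1.36) and Dusp1 (-0.85), whose product inactivates MAP kinases. That list had 3 calls without DMSO replicate 5, LPS-MMF replicate 1 or LPS-MMF replicate 3, and 4 without DMSO replicate 6.

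Of the surface molecules of activation, 12 of 18 rose and 1, Il1r2, fell. Cd69, an early activation receptor, read 39.3, 26.7 and 40.5 in DMSO and 181, 198 and 230 in LPS-MMF libraries. Fas, the death receptor, rose from 185 ± 52.9 to 742 ± 217, and Cd274, the gene of the checkpoint ligand PD-L1, from 128 ± 17.9 to 360 ± 71.5. Among complement and phagocytic receptors 9 of 16 rose and 1 fell. Msr1, a scavenger receptor, read 181, 282 and 350 in DMSO and 1369, 2306 and 1735 in LPS-MMF libraries. The one fall was that of Mrc1, the mannose receptor, from 40.9 ± 19.6 to 11.7 ± 1.63. Microglial identity genes moved least of these lists, with 4 rises and 1 fall among 14, a share of 35.7% against 22.4% of all tested genes. P2ry12 and Tmem119, which mark homeostatic microglia, were low in both groups, at means of 29.0 in DMSO and 42.9 in LPS-MMF for P2ry12 and of 86.8 and 108 for Tmem119, and neither passed. Without LPS-MMF replicate 3 that list had 2 calls, and without DMSO replicate 4 it had 3.

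Metabolic and growth genes moved by smaller amounts. Sterol synthesis genes rose in 14 of 21 cases and fell in 0, with a median log2 fold change of 0.31, the largest being Hsd17b7 at 0.54 and Fdft1, squalene synthase, at 0.48. The calls in that list were 8 without LPS-MMF replicate 3 and 9 without DMSO replicate 6. Of 18 genes of cholesterol efflux and lipid storage, 7 fell and 1 rose. Apoe, apolipoprotein E, read 897, 1058 and 1186 in DMSO and 580, 629 and 615 in LPS-MMF libraries, whereas Lpl, lipoprotein lipase, rose from 7402 ± 1025 to 13617 ± 2005. In glycolysis 6 of 18 genes fell, Pfkp, a phosphofructokinase, most at -0.63, and Pfkfb4 rose. In the tricarboxylic acid cycle 3 of 18 rose, namely Ogdh, Cs and Dlst at 0.44, 0.26 and 0.26. That share of 16.7% was below the 22.4% of all tested genes that passed.

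The ATF4 stress response list held 5 falls and 3 rises among 20. Its largest fall was that of Ddit3, the gene of the stress factor CHOP, which read 835, 841 and 744 in DMSO and 407, 325 and 424 in LPS-MMF libraries, followed by Ddit4 (-0.69), an inhibitor of mTOR complex 1, and Trib3 (-0.62). Without DMSO replicate 5 or 6 or LPS-MMF replicate 1 or 3, the lipid storage list had 5 calls, glycolysis 3 and ATF4 3 to 5. No mitosis gene of 20 passed by limma, while 1 passed with DESeq2 and 4 fell with EtOH in place of DMSO as the vehicle. Mki67 and Top2a, which mark dividing cells, had log2 fold changes of -0.15 and 0.00. Among 17 genes of G1 control 2 rose and 2 fell, a share of 23.5%, near the 22.4% of all tested genes. Mt1, a metallothionein gene, and Slc39a10, a zinc importer gene, fell among 5 zinc-response genes. Without any 1 of the DMSO libraries or LPS-MMF replicate 3, the zinc list had 1 call, and without DMSO replicate 6 or LPS-MMF replicate 2 the mitosis list gained 1.

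**Figure D2:**
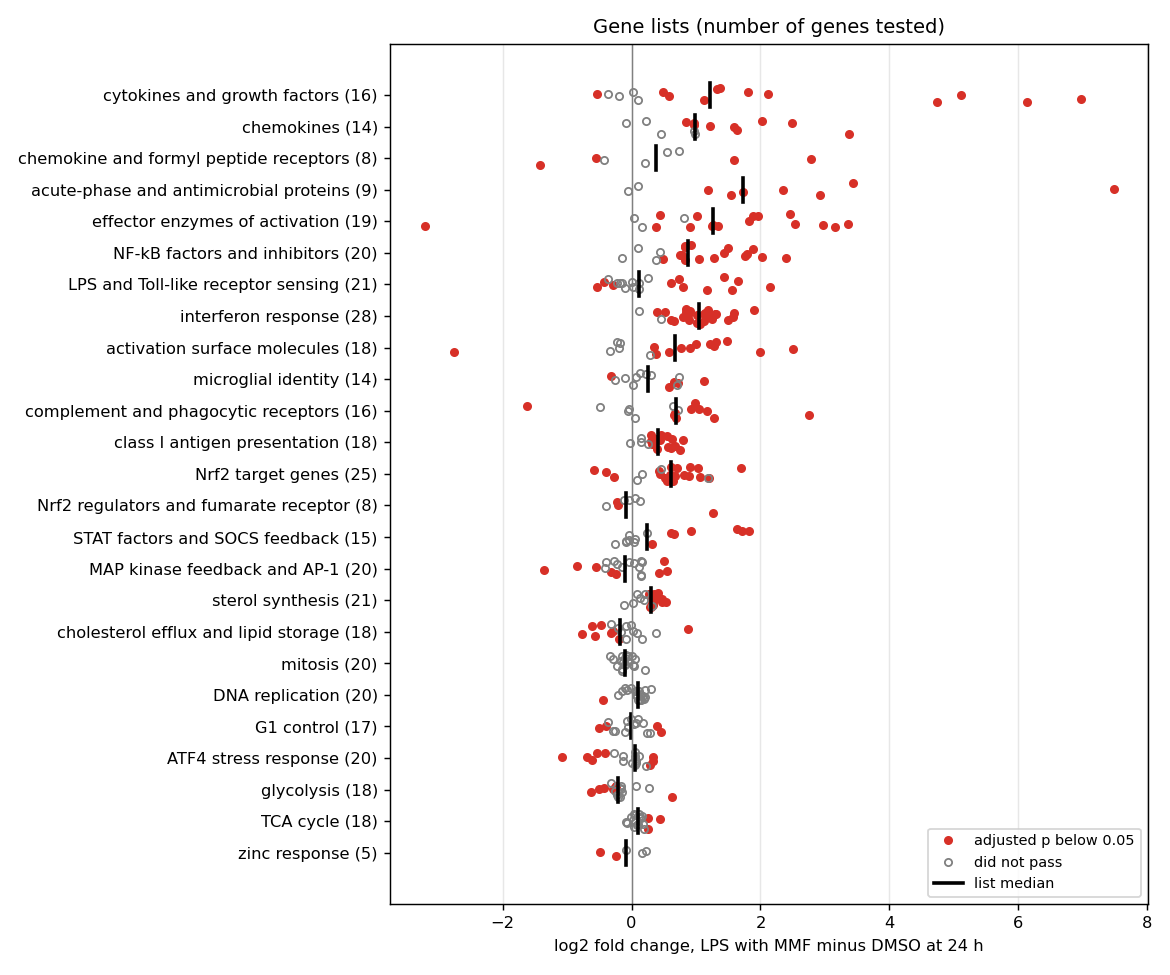
Log2 fold change between LPS-MMF and DMSO cells at 24 h for each tested member of the 25 gene lists, with red points for members that passed (limma adjusted p below 0.05), open grey points for those that did not and a black bar at each list's median. The medians of the acute-phase list (1.73), the effector enzymes (1.27) and the cytokines (1.22) lie furthest to the right, and the mitosis list shows no red point.

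To ask how much of the LPS response remained under MMF, activation genes were chosen in libraries that enter neither group, as those that differed between LPS alone and EtOH at 24 h with an absolute log2 fold change above 1. Of the 11775 genes tested there 20.5% passed, and LPS raised 310 (2.63%) in this way, of which 298 could be tested in LPS-MMF against DMSO. Of these, 272 (91.3%) rose, against 12.5% of all tested genes, and 0 fell. The median log2 fold change over the 298 genes was 1.44 in LPS-MMF against DMSO, beside 1.5 for LPS alone against the same DMSO libraries and 1.49 for LPS against EtOH. LPS lowered 236 genes (2%), of which 222 were tested, 168 (75.7%) fell, against 9.86% of all tested genes, and 0 rose, with medians of -1.07, -1.22 and -1.30. Activation genes chosen in the same way at 4 h, where 2.14% of the tested genes were raised and 0.357% lowered, gave a lower share: 190 of 233 raised genes (81.5%) rose and 3 fell, and 17 of 40 lowered genes (42.5%) fell and 1 rose. Of those 40 lowered genes, 29 had a negative log2 fold change in LPS-MMF against DMSO.

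Most of the activation genes that did not pass had few reads. Of the 26 raised genes that did not pass, 18 had a mean below 50 in the higher group, as had 47 of the 54 lowered genes, while 37 raised and 35 lowered genes with means below 50 passed. Ms4a4a, a tetraspan membrane protein of macrophages, read 1.01, 11.6 and 1.16 in DMSO and 7, 20.2 and 16.6 in LPS-MMF libraries, with overlapping ranges and a log2 fold change of 1.93 ± 0.73 (SE). Tnfsf15, Hdc and Ccl6 likewise had means below 20 in the higher group. Among the lowered genes, Slc3a1, Scn4a, Tgfb3 and Amz1 had log2 fold changes of -0.54, -0.52, -1.01 and -0.38 and did not pass.

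**Figure D3:**
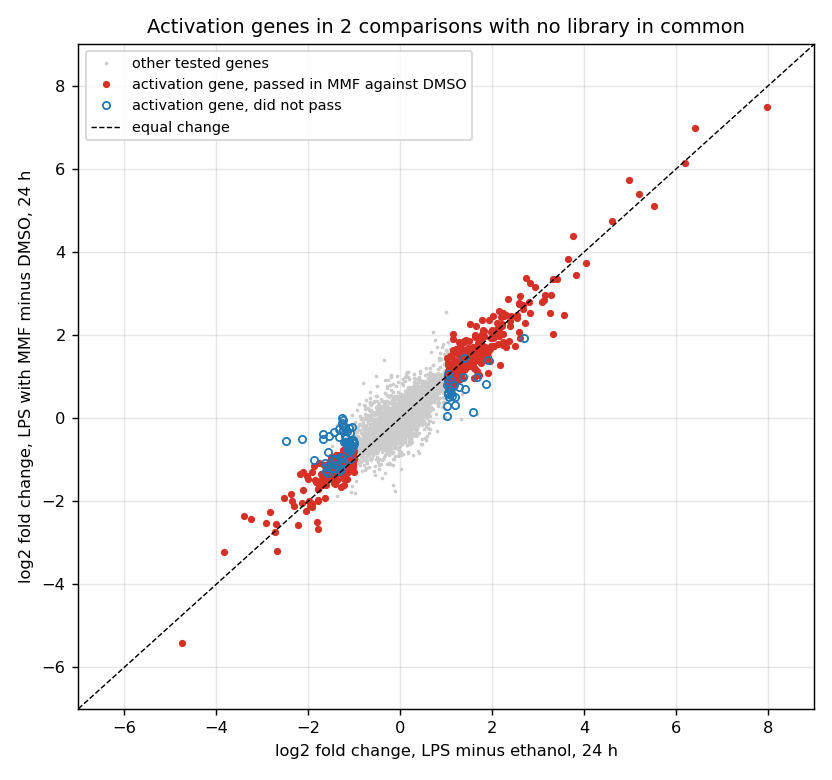
Log2 fold change of LPS alone against EtOH (horizontal) and of LPS-MMF against DMSO (vertical) at 24 h for 11524 genes tested in both, which share no library. Red points are activation genes that passed in LPS-MMF against DMSO, open blue points those that did not, grey points other genes, and the dashed line marks equal change.

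The comparisons of LPS-MMF with DMSO and of LPS with EtOH share no library. They are not independent, since LPS-MMF and LPS libraries of the same number deviated from their group means together (correlations of 0.33 to 0.68 across genes), which holds for the activation genes too. Over 11524 genes tested in both, the log2 fold changes had a Pearson r of 0.89 and a Spearman rho of 0.80 across genes, which are not independent replicates. They shared 1798 called genes, which made up 69.4% of the calls of LPS-MMF against DMSO and 74.5% of those of LPS against EtOH, and 1797 of them had the same direction.

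LPS-MMF cells were also compared with LPS-treated cells directly. By limma, 0 of 11584 genes passed (0%), with 440 at an unadjusted p below 0.05, and edgeR gave 0 and DESeq2 14. The smallest adjusted p was 0.0777. The 95% interval of the difference lay within 1 log2 unit on either side for 93.9% of the genes, and the median distance from the estimate to either bound was 0.23. A miss of the threshold does not show that levels were alike. For the 298 raised activation genes, 199 were lower and 99 higher in LPS-MMF than in LPS cells, and the median difference was -0.06, with the middle 80% of genes between -0.38 and 0.22. Of the lowered activation genes, 142 were higher and 55 lower in LPS-MMF than in LPS cells, and the median difference was 0.14, with the middle 80% between -0.19 and 0.56. That choice of genes used the same LPS libraries. For genes chosen at 4 h, in libraries that do not enter the comparison, the medians were -0.02 for raised and 0.01 for lowered genes.

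Because same-numbered LPS-MMF and LPS libraries deviated together in all 3 pairs, the replicate number was also fitted as a block. Libraries of unlike number correlated at -0.54 to 0.32, and the labels do not state a pairing. The pairing was inferred from the same libraries that the block then tests, so the blocked calls depend on it. Deviations were taken from group means of 3 libraries, which by itself lowers the correlations of unlike numbers. LPS-MMF replicate 3 correlated at 0.33 with LPS replicate 3 and at 0.32 with LPS replicate 1. With the block, 206 genes (1.78%) differed, 129 of them higher (1.11%) and 77 lower (0.665%) in LPS-MMF cells, with 114 of the 206 also among the genes that changed against DMSO. Over the 206 genes the median absolute log2 difference was 0.33 and the largest was 1.52. The medians against DMSO, in the fit without a block, were 0.51 over the rises and -0.46 over the falls. Il1b read 2030, 3888 and 2880 in LPS-MMF and 2223, 3436 and 2597 in LPS libraries, so the ranges overlapped, and the blocked log2 difference was 0.07 (95% interval -0.05 to 0.18). Nos2 read 5060, 9919 and 5062 in LPS-MMF and 5794, 9896 and 6799 in LPS libraries, with a difference of -0.21 (blocked limma adjusted p = 0.0786). Cxcl2 read 7055, 12011 and 7908 against 4792, 8054 and 5921, overlapping ranges in which the LPS-MMF library of every pair was the higher, and the difference was 0.52 (0.42 to 0.62).

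Some inflammatory genes were lower and others higher under MMF than with LPS alone. Hp and Ccl7 are named here after their values were seen. Hp read 3361, 6631 and 4994 in LPS-MMF and 5919, 9190 and 7653 in LPS libraries. Ccl7 read 317, 147 and 288 against 592, 247 and 483. In both the LPS-MMF library of each pair was the lower, with blocked differences of -0.63 (-0.75 to -0.52) and -0.79 (-0.98 to -0.60) on the log2 scale, though Hp and Ccl7 remained well above DMSO. Wfdc17 and the interferon-induced gene Ifi44l were lower by smaller amounts, at -0.38 and -0.40, and Slc28a2, a nucleoside transporter gene, at -0.45. Rgs12, a regulator of G-protein signalling, read 25.1, 22.7 and 20.5 in LPS-MMF and 45.6, 41.5 and 44.1 in LPS libraries, a difference of -0.92 (-1.41 to -0.43). Its fall against DMSO did not pass when any of 5 of the 6 libraries was left out. Il36g, Csf3 and Lcn2, likewise named here after their values were seen, were higher than with LPS alone. For each of them the LPS-MMF library of every pair was the higher, with blocked differences of 0.64, 0.37 and 0.25. Of 97 tested cytokine, chemokine, effector enzyme, NF-kB and interferon genes, 7 were higher and 5 lower than with LPS alone under the block. Of all tested genes, 1.11% were higher and 0.665% lower under the block. In all 3 pairs 33 of the 97 genes (34.0%) were lower and 21 (21.6%) higher, against 17.7% and 17.0% of all genes. The median difference of the 97 genes was -0.02.

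Nrf2 target genes stood above LPS alone. The list, chosen with earlier results of these data known, held 25 tested genes, of which 22 were higher in LPS-MMF than in LPS cells with the block (1.11% of all tested genes were higher) and 0 lower. In all 3 pairs the LPS-MMF library was the higher for 24 of the 25 genes, against 17.0% of all genes. The median difference of the list was 0.44 on the log2 scale, with a range from 0.15 to 1.47. Without the block none of the 25 passed. Srxn1, sulfiredoxin, which repairs oxidised peroxiredoxins, read 1309, 1480 and 1354 in LPS-MMF and 837, 895 and 865 in LPS libraries. Gclm, the modifier subunit of the rate-limiting enzyme of glutathione synthesis, read 1648, 1909 and 1704 against 1083, 1192 and 1158, and Txnrd1, thioredoxin reductase 1, 6951, 6494 and 7170 against 4760, 5115 and 5026. The groups were apart for all 3 genes, with blocked differences of 0.67 (0.55 to 0.79), 0.61 (0.50 to 0.73) and 0.47 (0.36 to 0.57).

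Cat, the gene of catalase, is not in the list and was named with Srxn1, Gclm and Txnrd1 for the smallest p-values above LPS alone in the fit without the block, in which none passed. It read 4229, 5109 and 4209 in LPS-MMF and 1885, 2629 and 2424 in LPS libraries, a difference of 0.97 (0.86 to 1.09). Slc7a11, the cystine transporter that supplies glutathione synthesis, read 3644, 5278 and 3846 against 1901, 3107 and 2294, and Blvrb, biliverdin reductase B, 1478, 2506 and 1728 against 909, 1437 and 997. The groups did not overlap, though narrowly for Blvrb, and the LPS-MMF library of each pair was the higher by 0.70 to 0.94. Nqo1, the classical quinone reductase target, was low in this line, at 16.4, 51.5 and 18.1 in LPS-MMF and 7.01, 11.2 and 7.36 in LPS libraries.

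**Figure D4:**
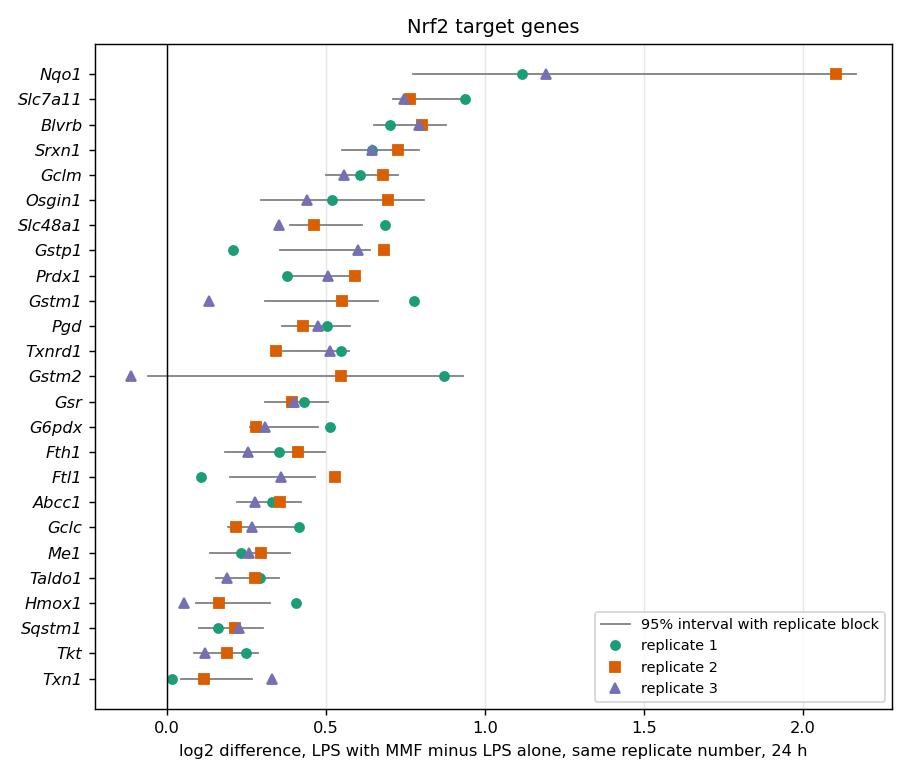
Log2 difference between LPS-MMF and LPS libraries of the same replicate number at 24 h for the 25 tested Nrf2 target genes, with 1 symbol per replicate and a grey line for the 95% interval of the fit with the replicate block. The symbols of 24 genes lie to the right of 0, Gstm2 is the exception, and Nqo1, a gene with few reads, has the widest interval.

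Against DMSO, the same list gave 18 rises and 3 falls, with a median of 0.61, beside 0.24 for LPS alone against DMSO. Blvrb read 410, 699 and 512 in DMSO and 1356, 2343 and 1588 in LPS-MMF libraries. Slc7a11 read 1543, 1809 and 1725 against 3342, 4934 and 3535. The groups lay apart for both, with log2 fold changes of 1.70 ± 0.21 and 1.20 ± 0.13 (SE). Fth1 and Prdx1, ferritin heavy chain and peroxiredoxin 1, rose by 1.04 and 0.90, and Gstm2 by 1.06 at a mean of 38.4. The 3 falls, named after their values were seen, were those of Hmox1 (haem oxygenase 1), Osgin1 and Sqstm1. Hmox1 read 8375, 9547 and 9848 in DMSO and 6559, 8075 and 6424 in LPS-MMF libraries, a log2 fold change of -0.40, and did not pass when any of 4 libraries was left out. Osgin1 fell by 0.58 against DMSO, while it was higher than with LPS alone, at 186, 173 and 196 against 130, 106 and 144. Gclc, Nqo1, Tkt and Gstm1 did not pass.

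Hcar2, the receptor of MMF, read 330, 433 and 383 in DMSO and 626, 1455 and 845 in LPS-MMF libraries. It rose by 1.27 ± 0.25 (SE) against DMSO and differed from LPS alone by 0.04 on the log2 scale. Among the regulators of Nrf2, Keap1 and Cul3, which encode parts of the ligase that degrades it, had log2 fold changes of -0.04 and 0.06. Nfe2l2, the gene of Nrf2, and Mafk, a partner, fell by 0.22 and fell by 0.21, close to the threshold, and that list had 1 called gene without DMSO replicate 5 or 6, without LPS-MMF replicate 1 or 3, or with no filter on low values.

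Promoters of genes that moved together are shown as sequence. RefSeq promoters on build GRCm38.p6, which differs from the GRCm39 build of the deposited tables, were found for 9166 of 11577 gene symbols, with 11731 promoters in all, and the 250 bases before each start were printed. Shares were counted in the window from 250 bases before to 50 after the start, on both strands. Il6 and Cxcl2 were chosen as strongly raised genes whose promoter holds the NF-kB motif, Isg15 and Ifit1 as interferon-response genes with the interferon-stimulated response element (ISRE, TTTC on either side of any 2 bases), Gclm and Txnrd1 as genes above LPS alone with the antioxidant response element (ARE, TGACNNNGC), and Lcn2 as the largest rise, in which the NF-kB motif was not found. Of the named genes searched, the NF-kB motif was found before a start in 2 of 9 large rises and ARE in 2 of 6 genes above LPS alone, the others being Srxn1, Cat, Slc7a11 and Blvrb. ISRE was found in 3 of the 4 interferon-response genes searched. Capitals mark the motif.
Il6, chr5:30012864-30013113, plus strand: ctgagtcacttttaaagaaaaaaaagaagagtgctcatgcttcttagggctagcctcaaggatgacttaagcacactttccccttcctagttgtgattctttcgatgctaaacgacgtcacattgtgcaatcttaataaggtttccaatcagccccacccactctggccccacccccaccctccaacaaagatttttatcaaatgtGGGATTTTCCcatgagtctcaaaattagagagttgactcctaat
Cxcl2, chr5:90903649-90903898, plus strand: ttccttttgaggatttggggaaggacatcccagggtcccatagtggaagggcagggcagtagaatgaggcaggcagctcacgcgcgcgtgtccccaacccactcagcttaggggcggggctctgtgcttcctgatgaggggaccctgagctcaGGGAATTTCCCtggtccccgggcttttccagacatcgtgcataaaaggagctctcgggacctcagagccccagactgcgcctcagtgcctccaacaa
Isg15, chr4:156200819-156201068, minus strand: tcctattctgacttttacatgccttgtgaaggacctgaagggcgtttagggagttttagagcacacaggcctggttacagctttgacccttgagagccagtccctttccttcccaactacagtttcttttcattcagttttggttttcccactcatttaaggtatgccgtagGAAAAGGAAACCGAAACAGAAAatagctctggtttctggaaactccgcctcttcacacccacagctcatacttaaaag
Ifit1, chr19:34640639-34640888, plus strand: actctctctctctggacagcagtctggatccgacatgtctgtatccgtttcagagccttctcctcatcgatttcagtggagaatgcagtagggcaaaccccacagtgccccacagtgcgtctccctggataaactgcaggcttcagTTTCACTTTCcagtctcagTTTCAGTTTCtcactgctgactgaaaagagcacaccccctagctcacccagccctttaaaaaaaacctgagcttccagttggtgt
Gclm, chr3:122245307-122245556, plus strand: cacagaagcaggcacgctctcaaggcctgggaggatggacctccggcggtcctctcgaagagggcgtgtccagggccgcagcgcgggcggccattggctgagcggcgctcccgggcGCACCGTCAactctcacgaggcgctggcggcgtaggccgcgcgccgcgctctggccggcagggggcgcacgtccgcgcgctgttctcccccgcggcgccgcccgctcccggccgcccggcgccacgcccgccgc
Txnrd1, chr10:82858956-82859205, plus strand: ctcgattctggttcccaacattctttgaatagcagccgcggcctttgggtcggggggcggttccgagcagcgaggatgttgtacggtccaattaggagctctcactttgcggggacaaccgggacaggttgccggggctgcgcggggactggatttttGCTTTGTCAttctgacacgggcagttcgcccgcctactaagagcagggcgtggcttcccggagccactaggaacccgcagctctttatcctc
Lcn2, chr2:32387740-32387989, minus strand: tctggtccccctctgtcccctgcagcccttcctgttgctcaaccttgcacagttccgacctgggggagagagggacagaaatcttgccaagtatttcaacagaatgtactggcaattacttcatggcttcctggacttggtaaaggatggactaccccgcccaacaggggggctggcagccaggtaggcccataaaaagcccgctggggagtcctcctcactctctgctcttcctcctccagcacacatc

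Counted back from the start, the motif began at position -44 in the Il6 promoter, -134 in Gclm and -92 in Txnrd1, the last at 1 of its 3 annotated starts. The NF-kB motif was held by 15.6% of the promoters of genes that rose by more than 1 on the log2 scale, 9.46% of those that fell by more than 1 and 10.4% of all promoters. ISRE was held by 13.5%, 1.35% and 3.21%, and the AP-1 motif (TGANTCA) by 15.2%, 10.1% and 5.15%. The cyclic AMP response element (TGACGTCA) was held by 0.355%, 3.38% and 3.09%, and ARE by 11.7%, 10.8% and 14.3%. Letters of ARE and AP-1 can overlap. Within the lists, 11 of 20 NF-kB system promoters held the NF-kB motif (55.0%), 14 of 32 interferon-response promoters ISRE (43.8%) and 7 of 27 Nrf2 target promoters ARE (25.9%). These are matches of letters and not measured binding.

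MMF and DMF, the monomethyl and dimethyl esters of fumaric acid, were compared at a matched 30 µM and 24 h, both with LPS, and this was the only pair of compounds compared. In DMF against MMF, 2508 of 11665 genes (21.5%) differed by limma, 1173 higher (10.1%) and 1335 lower (11.4%) with DMF. The replicate number was also fitted as a block, since same-numbered libraries correlated at 0.20 to 0.58, although the labels do not state a pairing. Libraries of unlike number correlated at -0.48 to 0.25. LPS-MMF replicate 3 correlated at 0.20 with DMF replicate 3 and at 0.25 with DMF replicate 1, so the blocked counts depend on a pairing inferred from these libraries. With the block, 4639 genes (39.8%) differed, 18.5% of those tested being higher and 21.3% lower. Leaving out 1 library moved the count between 962 and 2957, with the lowest without DMF replicate 3, and it was 1456, 1417 and 1276 without DMF replicate 2, LPS-MMF replicate 1 and LPS-MMF replicate 3.

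In sterol synthesis all 21 tested genes were lower with DMF, with and without the block, at a median difference of -1.39 on the log2 scale. Of all tested genes, 11.4% were lower, or 21.3% with the block. Hmgcs1, which makes the precursor of mevalonate, read 995, 1063 and 928 with DMF and 2973, 3133 and 3198 with MMF. Hsd17b7 read 310, 273 and 263 against 995, 1157 and 1160. Stard4, a sterol carrier, read 926, 790 and 817 against 2274, 2500 and 2452, and Dhcr7, of the last step of cholesterol synthesis, was lower by 1.90 (95% interval of the DMF minus MMF difference -2.13 to -1.68). No DMF library reached the MMF range for these genes. Abca1, a cholesterol exporter, was higher with DMF, at 4224, 4788 and 4575 against 1680, 2182 and 1600.

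Of all tested genes, 10.1% were higher and 11.4% lower with DMF, or 18.5% and 21.3% with the block. ATF4 targets were higher with DMF in 14 of 20 cases (16 with the block) and lower in 0. Trib3 read 2660, 3240 and 3198 with DMF and 961, 820 and 1123 with MMF, and Sesn2 3070, 3459 and 3340 against 1725, 1842 and 1784. Mitosis genes were lower with DMF in 18 of 20 cases (20 with the block), at a median of -0.66. Among cytokines 9 of 16 were higher with DMF and 0 lower, including Csf3 at 1233, 2303 and 2421 against 476, 934 and 576. Cstdc4, a member of a cluster of near-identical cystatin genes among which reads may be shared, was higher with DMF by 1.07.

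Of 25 Nrf2 targets, 4 were higher and 5 lower with DMF (36.0%, against 21.5% of all tested genes), at a median of -0.10, and with the block 5 were higher and 8 lower (52.0%, against 39.8%). Gclm read 1594, 2045 and 2054 with DMF and 1654, 1914 and 1722 with MMF, overlapping ranges with a difference of 0.10 (95% interval -0.13 to 0.33). For Txnrd1 the difference was 0.08 (-0.07 to 0.23) and for Hmox1 -0.04 (-0.37 to 0.29), intervals that do not show equal levels. Slc7a11 and Srxn1 were higher with DMF by 0.73 (0.36 to 1.10) and 0.51 (0.19 to 0.83), and Osgin1 and Sqstm1 by 0.94 and 0.95. The 5 genes lower with DMF without the block were Me1, Slc48a1, Gstp1, Tkt and Gsr. Their differences were -0.76, -0.57, -0.49, -0.32 and -0.22.

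Whether the difference from DMSO had changed since 4 h was tested as an interaction over 12 libraries on a joint scale. In all, 868 of 11857 genes (7.32%) passed, 462 (3.9%) with a more positive and 406 (3.42%) with a more negative difference at 24 h, and the count was 528 without DMSO replicate 6 at 24 h, 561 without DMSO replicate 6 at 4 h and 542 without LPS-MMF replicate 3 at 24 h. At 4 h itself 940 of 11440 genes (8.22%) had changed, 5.12% upwards and 3.09% downwards. Of the 1448 rises at 24 h, 380 had also risen at 4 h and 21 had then been lower. The 4 h and 24 h comparisons share no library. Chemokines had a higher median difference from DMSO at 4 h (2.19) than at 24 h (0.98), whereas the acute-phase list had a lower one (0.77 against 1.73). These medians come from separately normalised comparisons, and those at 4 h cover only members also tested at 4 h. The change in the medians was not tested.

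Lcn2 read 8.74, 60.4 and 13.7 in DMSO and 247, 339 and 234 in LPS-MMF libraries at 4 h, and 26.5, 36.9 and 32.4 against 4068, 7335 and 6465 at 24 h on the joint scale. It was thus raised early and further by 24 h. Msr1 read 605, 716 and 683 in DMSO and 785, 1182 and 979 in LPS-MMF libraries at 4 h, but 183, 280 and 351 against 1370, 2273 and 1742 at 24 h, so that DMSO cells were lower and LPS-MMF cells higher at the later time. Wfdc17 and Urah were low at 4 h, with at most 57.3 and 6.94 in any library. For the 4 genes with the most negative change in the difference, the DMSO level was what differed most between times. Atp7b read 10.7, 26.0 and 6.31 in DMSO at 4 h and 185, 209 and 223 at 24 h, while LPS-MMF cells were at 9.88, 25.8 and 13.1 and then at 39.0, 34.2 and 30.3. Ldc1 and Pgf, the gene of placental growth factor, were likewise higher in every DMSO library at 24 h than in any at 4 h, and Mpp2, a scaffold protein gene, was above DMSO at 4 h and below it at 24 h.

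**Figure D5:**
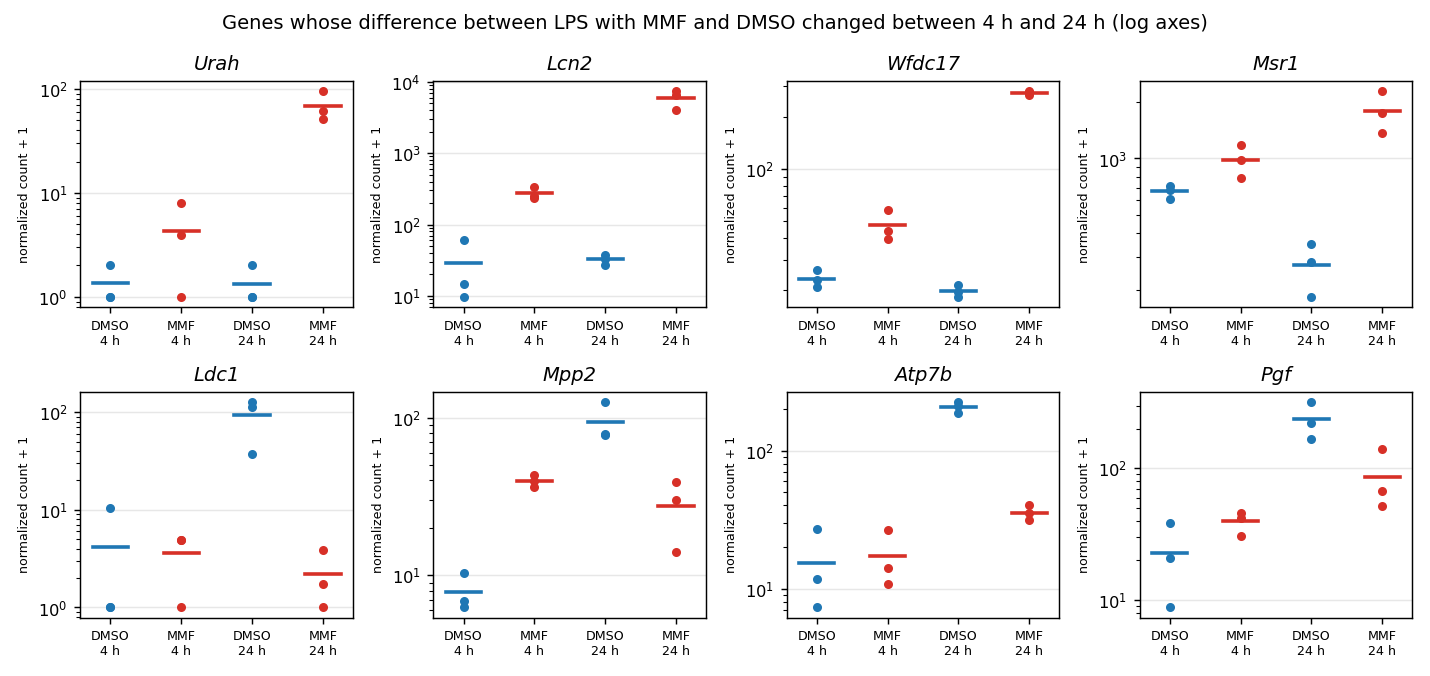
Normalised counts plus 1 on log axes at 4 h and 24 h for the 8 genes with the largest interaction among genes that changed at 24 h, with 1 point per library (n = 3), a bar at the group mean, DMSO in blue and LPS with MMF in red. In the upper 4 panels the gap between the colours widened upwards, and in the lower 4 the DMSO level was higher at 24 h than at 4 h.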

How the data were processed

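RNA was sequenced from BV-2 cells as poly(A) libraries with paired-end reads. Per the labels and the study's methods, the authors checked reads with FastQC 0.12.1, trimmed them using Cutadapt 4.4 and Trimmomatic 0.39, mapped them to GRCm39 with HISAT2 2.2.1, counted them per Ensembl gene with HTSeq 2.0.3 and normalised them with DESeq2 1.40.2 in R 4.3.1. The strand setting is not given in the sources used here, so overlapping and antisense genes could not be told apart. The authors deposited 30 tables, 1 per pair of groups, in which the signal of each library is its read count divided by a size factor set within that table. The fold changes, standard errors, test statistics and p-values the authors placed in the same tables were not used.

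Of these, 9 were used. Whole reads were recovered from them: 867848 values (100%) lay within 0.01 of a whole number, and 0 of 469805 values compared between tables differed. No library was a copy of another of its group, the chi-square between them being 4.86 to 17.8 per degree of freedom. The intervals of the read ratios of Urah and Ldc1 cover counting error only, whereas the other intervals come from limma and cover the spread between libraries.

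Tests used limma 3.58.1 (intensity trend) in R 4.3.3 on log2 of the normalised count plus 1, so that fold changes of low genes are understated, for genes with at least 10 in at least 3 of the 6 libraries. Genes passed at p below 0.05 after Benjamini-Hochberg adjustment, with no limit on fold change. Comparisons between separately normalised tables were not tested. The interaction with time used recovered reads of 12 libraries under joint size factors. Replicate numbers were taken to pair LPS-MMF with LPS and with DMF libraries, since same-numbered libraries correlated at over 0.1 in every pair (0.33 to 0.68 and 0.20 to 0.58). The labels do not state this pairing. Libraries of unlike number correlated at -0.54 to 0.32 and -0.48 to 0.25. LPS-MMF replicate 3 correlated at 0.33 with LPS replicate 3 and 0.32 with LPS replicate 1. It correlated at 0.20 with DMF replicate 3 and 0.25 with DMF replicate 1. The fitting was tested on simulated data. Alternatives were edgeR 4.0.16, DESeq2 1.42.0, other pseudocounts, no filter, a shared spread, EtOH as vehicle and leaving out each library.

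Named genes were the 12 largest rises and falls with groups lying apart and, in the higher group, a mean of 50 or more, up to 5 leading members of each list and members that did not pass, and the extremes of the other comparisons. The members, lists and tests were chosen with earlier results of these data known. A gene to which the rule applies may be not reported here by name, while counts include it.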

Additional observations from a re-analysis of the deposited data

Results flagged for a closer look

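The difference between LPS-MMF and DMSO cells was not the same at 24 h and at 4 h for 868 genes by the limma interaction term. Among genes that also changed at 24 h, the change in the log2 difference was most positive for Urah (4.41), Lcn2 (3.76), Wfdc17 (2.80) and Msr1 (2.2), with adjusted p-values of 0.0151, 0.00409, 5.25e-05 and 0.000901. It was most negative for Ldc1 (-5.85), Mpp2 (-4.23), Atp7b (-2.82) and Pgf (-2.55), with adjusted p-values of 0.0146, 0.000319, 0.00837 and 0.0262. Urah had at most 1 read in any DMSO library and Ldc1 at most 2.85 normalised counts in any LPS-MMF library at 24 h, so the size of their values depends on the pseudocount. In the DMSO libraries Atp7b, Mpp2, Pgf and Ldc1 were each higher at 24 h than at 4 h, after the serum had been lowered to 0.1%. The part of time in low serum in these results was not tested.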

How the results depend on the processing

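No named gene or list member that passed between LPS-MMF and DMSO cells changed direction under an alternative, but activation genes that passed in the opposite direction numbered 3 raised and 1 lowered when chosen at 4 h and 1 lowered with no limit on fold change, against 0. The count of genes that changed between LPS-MMF and DMSO cells was 2643 with edgeR and 2468 with DESeq2, and 1657 to 2634 when 1 library was left out. Limiting the absolute log2 fold change to above 1 left 455 genes for LPS-MMF against DMSO, 516 for LPS against DMSO, 546 for LPS against EtOH, 237 for DMF against MMF and 194 for the interaction. For LPS-MMF against LPS the count of 0 became 14 with DESeq2, 3 with no filter, 4 with the spread of all 18 libraries at 24 h and 206 with the replicate block, and 0 to 2 without 1 library. The replicate block gave 4639 for DMF against MMF and 1484 for the interaction, in which DMSO libraries of the same number correlated at only 0.01 to 0.37, so that the numbers were not taken as pairs there. Leaving out 1 library gave 1683 to 2821 for LPS against DMSO, with 1683 without LPS replicate 3 and 1720 without DMSO replicate 5. It gave 1441 to 2515 for LPS against EtOH, with 1441 without LPS replicate 3 and 1598 without EtOH replicate 5, and 962 to 2957 for DMF against MMF and 528 to 842 for the interaction. The share of lowered activation genes that fell under MMF was 42.5% when they were chosen at 4 h, and leaving out 1 library gave 63.5% to 73.4% for genes chosen at 24 h and 84.2% to 89.9% for raised genes. The cause was not tested for any of these. Named genes and list members were counted once under each alternative, so that 1 gene can count more than once. In these counts 236 results lost and 80 gained their call. Most were lost without LPS-MMF replicate 3, where 46 genes lost and 2 gained their call and 404 kept their result. No paired analysis was made of LPS-MMF against DMSO, because their libraries share no replicate number. All DMSO and EtOH libraries are numbered 4 to 6 and all libraries with LPS 1 to 3. Whatever the numbers stand for can therefore not be told apart from treatment, also with EtOH as vehicle. Of activation genes with a mean below 50 in the higher group, 37 raised and 35 lowered passed and 18 and 47 did not, and the part of depth in this was not tested.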
